A study of Mus musculus with 4 samples.

Results

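Heat shock proteins and J-domain proteins are the chaperones that fold new proteins, hold damaged ones in solution and pass them on for repair or removal. In this table they were the 74 of 24054 gene symbols that begin with Hspa, Hspb, Hspd, Hspe or Hsph and a number, or with Hsp90 or Dnaj, together with Cryab and Bag3. The rule used names only, not expression values. They fell into 9 small heat shock protein genes with Cryab counted among them, Bag3, 11 HSP70 genes, 3 HSP110 genes, 3 HSP90 genes, the HSP60 and HSP10 chaperonin pair, 4 DNAJA genes, 13 DNAJB genes and 28 DNAJC genes. The soleus, a slow postural muscle of the hindlimb, came from female mdx mice, a dystrophin-deficient strain. Monthly femoral vein infusions began at 8 weeks of age, and muscles were taken at the 12-month endpoint. 2 samples came from mice given mouse cardiosphere-derived cells (mCDCs) at passage 5, grown from 1 heart of the matching strain with intact dystrophin, and 2 from mice given the medium alone (vehicle). All 4 muscles carried the mdx mutation, so no level in healthy muscle can be set beside these.

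HSP70 proteins bind exposed stretches of unfolded protein and release them in a cycle driven by ATP. J-domain proteins (the DNAJA, DNAJB and DNAJC classes) deliver clients to HSP70 and start its ATP hydrolysis, HSP110 proteins exchange its nucleotide, and HSP90 finishes the folding of kinases and receptors. Small heat shock proteins need no ATP and hold unfolding proteins. In striated muscle they sit at the Z-disc and on filaments, and BAG3 links them to HSP70 so that damaged filament proteins can be sent to autophagy. HSF1 is the transcription factor that switches on many of these genes after heat or other protein damage, whereas HSPA5 (BiP) and its partners answer to stress in the endoplasmic reticulum.

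Library totals ran from 22481391 to 27187425 expected counts, and Pearson correlations of log2 CPM between libraries lay between 0.980 and 0.987. CPM are counts scaled to a fixed library size after trimmed mean of M-values (TMM) scaling. All 7 skeletal muscle markers passed the filter, and their summed level was 125198 and 113102 CPM in mCDC replicates 1 and 2 and 115583 and 112678 CPM in vehicle replicates 1 and 2. On the first principal component, which held 45.9% of the variance, mCDC replicate 2 stood at 32.1 and vehicle replicate 2 at -33.4, with the other two libraries between. Of the 74 members, 65 passed the filter on low counts and were tested. The other 9 were Dnajb3, Dnajb7, Dnajb13, Dnajc6 and Hspb9, with at most 13 counts in any library, and Dnajb8, Dnajc22, Dnajc5b and Dnajc5g, with 0 counts in all 4, where 3 counts in a library, the limit that a count of 0 allows, correspond to between 0.110 and 0.133 CPM. A gene was called when its fold change passed 1.5 with an unadjusted p under 0.05 in edgeR's quasi-likelihood test, the thresholds of the study's methods. In fits with 1 library left out, 1 group was a single sample, the spread came from the other group alone, and the single sample was assumed to vary like it. The labels do not say whether the 2 samples of a group came from different mice, so n = 2 counts samples. With 2 samples a group, the exact permutation test of a single value could not give a p below 0.333.

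By these thresholds Hspb1, Cryab, Hspa1b and Hspa5 were called higher and Hspa12a was called lower in mCDC muscles. That is 4 members called higher, where 1.26% of all 13652 genes tested were, and 1 called lower, where 2.74% of all genes tested were. No member had an adjusted p under 0.05, as no gene had in that test, and the smallest adjusted p of a member was 0.567 from edgeR's quasi-likelihood test. At an unadjusted p under 0.05 there were 10 members, or 15.4%, against 6.94% of all genes tested. DESeq2, which tested 70 members and 18132 genes, gave an unadjusted p under 0.05 for 11 members, against 3.96% of all genes, and an adjusted p under 0.05 for Hspa1b, Hspb1 and 48 genes in all. With edgeR's exact test on the 65 members, 10 had an unadjusted p under 0.05, against 6.60% of all genes, and 0 had an adjusted p under 0.05, where 58 genes had.

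More broadly, 49 of the 65 tested members had a log2 fold change above 0, or 75.4%, against 48.4% of all genes tested. Both mCDC libraries lay above both vehicle libraries for 28 members, or 43.1%, against 19.2% of all genes tested, and both lay below for 5 members, or 7.69%, against 19.5%. The median log2 fold change of the tested members was 0.12 and that of all genes tested was -0.01. The members' median was 0.07 without vehicle replicate 2, where 40 of 65 members lay above 0, and 0.22 without vehicle replicate 1, where 55 of 66 did. The members together took 26213 and 32364 CPM in mCDC replicates 1 and 2 and 22958 and 21777 CPM in vehicle replicates 1 and 2, so the groups did not overlap in this sum. Small heat shock proteins made up 65.3% of it in mCDC muscles and 59.2% in vehicle muscles. The sums of the HSP110, HSP90, DNAJA and DNAJC families overlapped between the groups. Without TMM scaling, on library totals alone, 37 of the 65 members and 4817 of all 13652 genes had a log2 fold change above 0, with medians of 0.04 and -0.09. After correction for transcript length and GC content, 55 members and 7617 genes did, with medians of 0.20 and 0.03. These counts and medians were given no test.

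**Figure D1:**
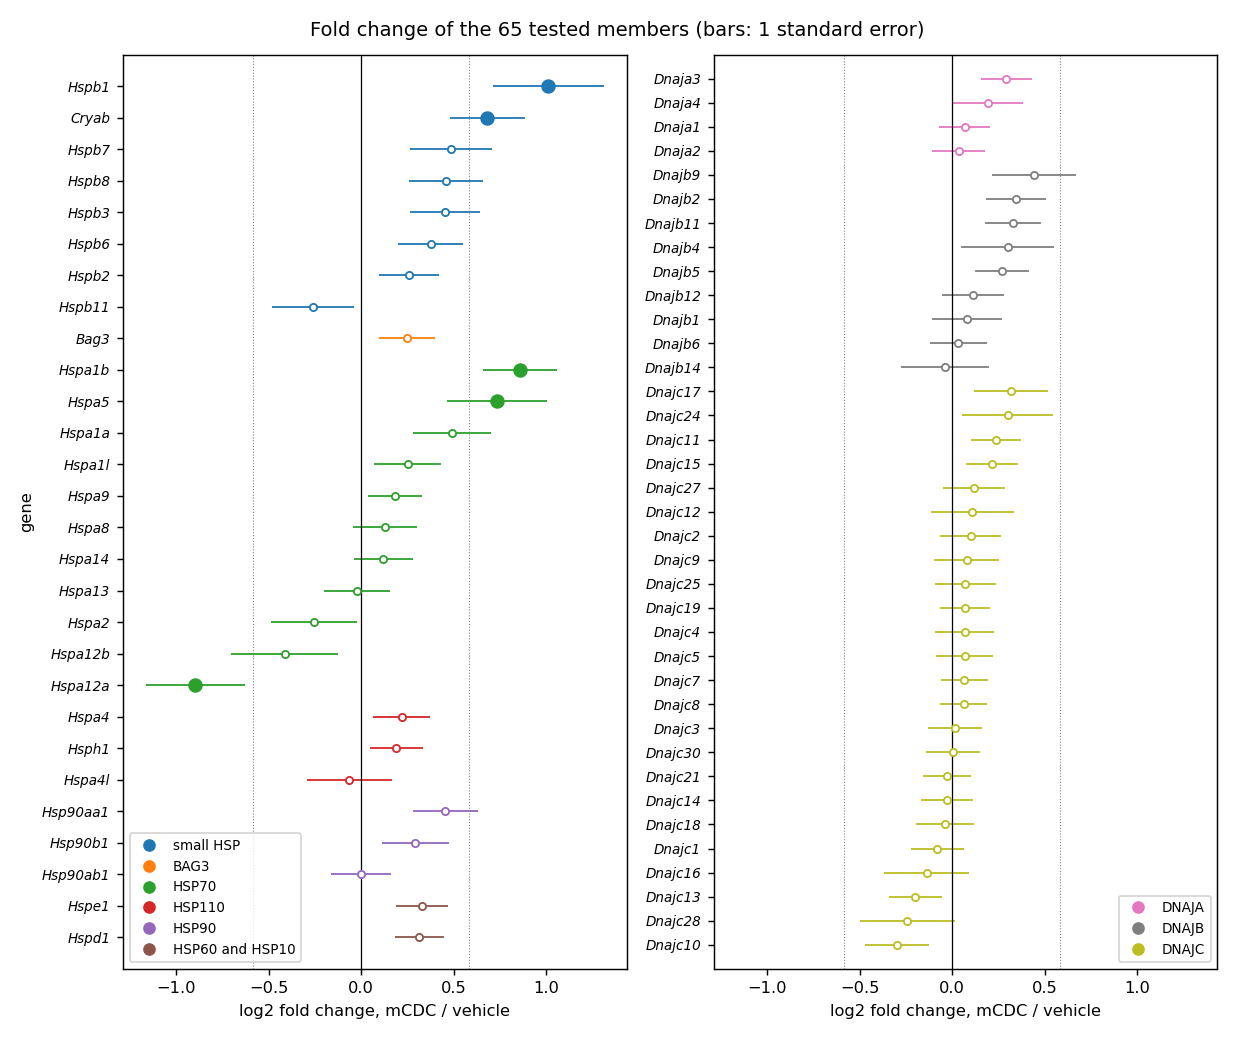
Log2 fold change between mCDC and vehicle muscles (x axis) for each of the 65 tested members (y axis), grouped by family, with bars of 1 standard error. Large filled points are the 5 called members and dotted lines mark a fold change of 1.5. The small heat shock proteins other than Hspb11 lie to the right of 0, while the DNAJC genes spread from -0.30 to 0.32.

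The small heat shock proteins held most of the members' CPM, and their groups did not overlap in sum. Their summed level was 16713 and 21542 CPM in mCDC replicates 1 and 2 and 13385 and 13109 CPM in vehicle replicates 1 and 2, a 1.44-fold difference of means. They made up 59.2% of all CPM of the members in vehicle muscles and 65.3% in mCDC muscles. Of the 8 tested, 7 had a log2 fold change above 0, against 48.4% of all genes tested, with a family median of 0.45. In 6 of the 8 both mCDC libraries lay above both vehicle libraries, against 19.2% of all genes tested. Per kilobase of transcript, the scale on which genes can be compared, Cryab stood at 4920.1, Hspb6 at 3079, Hspb7 at 2129, Hspb1 at 848, Hspb8 at 421, Hspb2 at 159, Hspb3 at 46.0 and Hspb11 at 7.91 CPM per kilobase over all 4 libraries.

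Other marker lists also differed between these libraries. The 5 slow fibre markers summed to 79228 and 68074 CPM in mCDC replicates 1 and 2 and 78677 and 64637 CPM in vehicle replicates 1 and 2, and the 6 fast fibre markers to 23700 and 15081 CPM in mCDC replicates 1 and 2 and 18201 and 19399 CPM in vehicle replicates 1 and 2. The fast sum was lowest in mCDC replicate 2, the library in which Cryab, Hspb1, Hspb7 and Hspb8 were highest, and so were Myh4, Myh1, Pvalb and Atp2a1, but Tnnt3 and Tnni2 were lowest in vehicle replicate 1. The fast myosin Myh4 had 2096 and 47.5 CPM in mCDC replicates 1 and 2 and 163 and 411 CPM in vehicle replicates 1 and 2, and the fast troponin Tnnt3 had 5709 and 5930 CPM in mCDC replicates 1 and 2 and 4571 and 7039 CPM in vehicle replicates 1 and 2. All 5 fibroblast and all 5 erythroid markers had log2 fold changes below 0, and both lists were highest in vehicle replicate 2. Without that library the fibroblast median was -0.09, with 2 of 5 above 0, and the erythroid median was 0.26, with 3 of 5 above 0. The fibroblast markers summed to 304 and 266 CPM in mCDC replicates 1 and 2 and 290 and 492 CPM in vehicle replicates 1 and 2, and the erythroid markers to 269.8 and 279 CPM in mCDC replicates 1 and 2 and 244 and 454 CPM in vehicle replicates 1 and 2. The 6 tested macrophage markers, 2 of them above 0, summed to 38.9 and 45.9 CPM in mCDC replicates 1 and 2 and 33.7 and 56.7 CPM in vehicle replicates 1 and 2. All 4 adipocyte and 4 of 5 Schwann markers lay below 0. But 3 of 4 adipocyte markers lay above 0 without vehicle replicate 1, as did 3 of 5 Schwann and 4 of 6 macrophage markers without vehicle replicate 2. The part of fibre type and of other cells in the small heat shock protein values was not tested.

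Hspb1 encodes HSP25, the mouse counterpart of human HSP27, which protects actin filaments. It had 674 and 1405 CPM in mCDC replicates 1 and 2 and 500.3 and 530.2 CPM in vehicle replicates 1 and 2. Both mCDC libraries lay above the vehicle libraries, but replicate 1 was closer to them than to replicate 2. The means were 1039.5 ± 516 CPM and 515 ± 21.2 CPM (SD, n = 2 each), a log2 fold change of 1.01 (standard error 0.30, edgeR adjusted p = 0.635), and without mCDC replicate 2 the log2 fold change was 0.39 and the gene was not called. It was not called without vehicle replicate 1 either, at 0.98. Of its 75-base windows, 46.4% also occur in a pseudogene that the table does not list, so reads from that copy would count as Hspb1.

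Cryab encodes alpha-B-crystallin, which binds desmin and titin at the Z-disc and is among the most abundant chaperones of slow muscle. It had 4742 and 6119 CPM in mCDC replicates 1 and 2 and 3231 and 3542 CPM in vehicle replicates 1 and 2. Even the lower mCDC library exceeded the higher vehicle library by more than the vehicle libraries differed. Its log2 fold change was 0.68 (standard error 0.20, edgeR adjusted p = 0.635), and it was 0.49 without mCDC replicate 2 and 0.62 without vehicle replicate 1, where it was no longer called.

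Hspb7, a heart and muscle member that binds filamin C, had 5794 and 7956 CPM in mCDC replicates 1 and 2 and 5126 and 4704 CPM in vehicle replicates 1 and 2. Hspb6 (HSP20), a partner of alpha-B-crystallin in mixed oligomers, had 4648 and 4829 CPM in mCDC replicates 1 and 2 and 3719.5 and 3590.1 CPM in vehicle replicates 1 and 2. Hspb8 (HSP22), the partner of BAG3, had 716 and 1052 CPM in mCDC replicates 1 and 2 and 684 and 604 CPM in vehicle replicates 1 and 2. None of these 3 genes had groups that overlapped, and none was called. Hspb6 was the most even of them, since its log2 fold change of 0.37 (standard error 0.18, edgeR adjusted p = 0.724) ran only from 0.35 to 0.40 with each library left out. For Hspb7 and Hspb8 mCDC replicate 2 was the high library, and their log2 fold changes of 0.48 and 0.46 became 0.24 and 0.15 without it and 0.70 and 0.71, both called, without mCDC replicate 1.

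Hspb3, a muscle-specific member that pairs with HSPB2, had 34.2 and 48.9 CPM in mCDC replicates 1 and 2 and 30.8 and 29.9 CPM in vehicle replicates 1 and 2, a log2 fold change of 0.45 that was 0.17 without mCDC replicate 2 and 0.69, and called, without mCDC replicate 1. Hspb2 itself had 102 and 128 CPM in mCDC replicates 1 and 2 and 88.4 and 104 CPM in vehicle replicates 1 and 2, so its groups overlapped. The gene lies head to head with Cryab on GRCm38 (mm10), Hspb2 at chr9:50751078-50752354 on the minus strand and Cryab at chr9:50751325-50756636 on the plus strand. The annotated genes overlap at their 5′ ends, and whether the counting used strand is not given in the sources used here, so reads from the overlap may have been divided between them. Hspb11, a ciliary transport protein that carries the family's name, was the exception in direction, with 4.09 and 4.66 CPM in mCDC replicates 1 and 2 and 5.38 and 5.09 CPM in vehicle replicates 1 and 2. Bag3 had 592 and 630.0 CPM in mCDC replicates 1 and 2 and 567 and 463 CPM in vehicle replicates 1 and 2, a log2 fold change of 0.25 (standard error 0.15, edgeR adjusted p = 0.763).

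**Figure D2:**
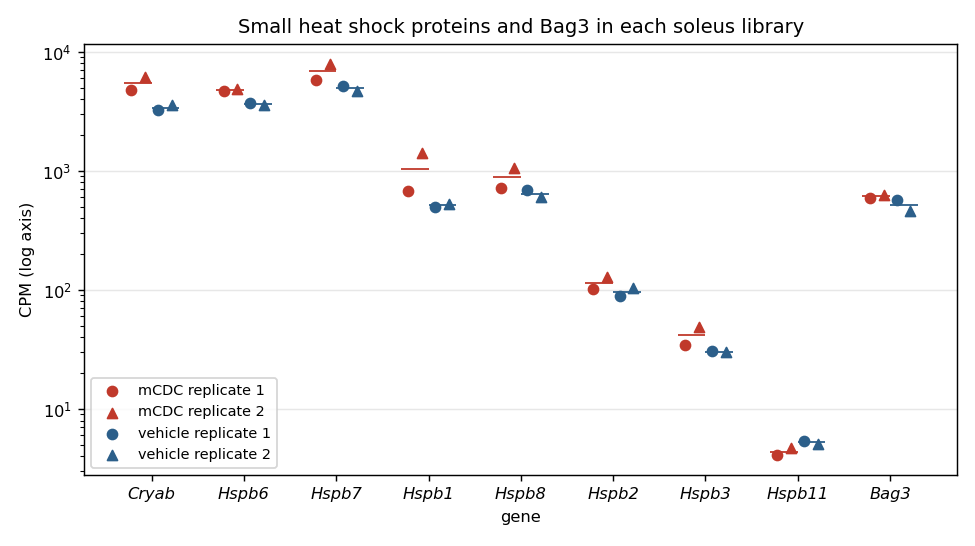
CPM on a log axis (y) of the 8 tested small heat shock protein genes and Bag3 (x) in each of the 4 libraries, with short lines at the group means. The mCDC libraries lie above the vehicle libraries for Cryab, Hspb6, Hspb7, Hspb1, Hspb8, Hspb3 and Bag3, overlap them for Hspb2 and lie below them for Hspb11.

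The promoters of 4 of the 7 small heat shock protein genes that could be matched hold the word GAANNTTC, a 2-unit form of the heat shock element that HSF1 binds, within the window from 250 bases before to 50 bases after the RefSeq start site. They were Hspb1, Hspb3, Hspb6 and Hspb8. The word reads the same on both strands, it can overlap the 3-unit forms, and it occurred in 9.04% of 27025 genes with such a window. The window of Hspb1, the gene with the highest fold change, at chr5:135887669-135887968 on the plus strand and that of Hspb6, the gene with the most even difference, at chr7:30553051-30553350 on the plus strand are shown 5′ to 3′ with the words in capitals, from RefSeq on GRCm38.p6. A gene was counted when any of its windows held the word, and the other RefSeq window of Hspb6, at chr7:30552290-30552589, does not hold it.
Hspb1: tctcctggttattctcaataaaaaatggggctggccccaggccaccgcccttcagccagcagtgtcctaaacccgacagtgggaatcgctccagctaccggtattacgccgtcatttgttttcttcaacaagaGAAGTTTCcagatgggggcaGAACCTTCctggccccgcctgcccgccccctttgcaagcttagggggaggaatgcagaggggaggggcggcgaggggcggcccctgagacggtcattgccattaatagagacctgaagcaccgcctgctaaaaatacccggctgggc
Hspb6: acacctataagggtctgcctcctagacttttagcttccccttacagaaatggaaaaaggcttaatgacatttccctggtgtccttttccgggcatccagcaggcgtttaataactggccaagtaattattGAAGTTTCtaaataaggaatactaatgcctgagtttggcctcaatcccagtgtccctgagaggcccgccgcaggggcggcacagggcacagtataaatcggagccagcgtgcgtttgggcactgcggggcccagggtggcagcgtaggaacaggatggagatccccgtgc
Hspb1 held 2 such words, starting 117 and 97 bases before the start site, and Hspb6 held 1 starting 120 bases before it. Over the 59 members that could be matched to a window, 17 genes held GAANNTTC or its alternate phase TTCNNGAA, where 17.0% of all genes did. GAANNTTC was in 25.4% of these members against 9.04% of all genes, and TTCNNGAA in 10.2% against 9.60%. The 16 of these 17 that were tested had log2 fold changes with a median of 0.31 and 15 above 0, and the 36 tested members whose windows held neither word had a median of 0.07, with 24 above 0. On library totals alone these medians were 0.23 and -0.01, after the length and GC correction 0.31 and 0.13, and without vehicle replicate 2 0.16, with 10 of 16 above 0, and 0.05. Tested members without a window, among them Cryab, Hspb2, Hspa8, Hspa9, Hsp90aa1 and Hsp90ab1, were in neither group. The group with a word counts Hspa1a and Hspa1b, whose windows are nearly alike, and Hspd1 and Hspe1, whose windows overlap, as separate genes. The difference between the groups was not tested. A word in a window is a description of its letters and not a measured binding site.

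HSP70 genes did not move as one family. Of the 11, all tested, 7 had a log2 fold change above 0, with a median of 0.13, and they ran from -0.90 to 0.86, the widest range of any family. The median was 0.24 without mCDC replicate 1, 0.22 without vehicle replicate 1, 0.09 without either of the other libraries and 0.05 on library totals alone. The stress-inducible copies and BiP were at the upper end and the atypical Hspa12 genes at the lower end. The summed HSP70 level was 3340.2 and 4028 CPM in mCDC replicates 1 and 2 and 3293 and 3057 CPM in vehicle replicates 1 and 2, of which the constitutive Hspa8 was the larger part.

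Hspa1b and Hspa1a are the neighbouring, nearly identical genes for inducible HSP70, the classical readout of the heat shock response. Hspa1b had 135 CPM in each mCDC library and 90.2 and 58.5 CPM in vehicle replicates 1 and 2. The mCDC libraries were alike, and the vehicle libraries differed from each other. Its log2 fold change was 0.86 (standard error 0.20, edgeR adjusted p = 0.567), the smallest p of any member and rank 62 of all genes tested, and it was 0.58, just under the fold threshold, without vehicle replicate 2. Hspa1a had 195 and 152 CPM in mCDC replicates 1 and 2 and 148 and 98.6 CPM in vehicle replicates 1 and 2, a log2 fold change of 0.49 (standard error 0.21, edgeR adjusted p = 0.714). Its groups were separated by a narrow gap, between mCDC replicate 2 and vehicle replicate 1. It was called without mCDC replicate 2, at 0.66, and without vehicle replicate 1, at 0.82, and stood at 0.23 without vehicle replicate 2.

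The split of reads between these copies is uncertain. Of the 75-base windows of the Hspa1b coding sequence, 75.3% also occur in Hspa1a, and 75 bases was the read length, so most coding reads cannot be placed in one copy. The first of them, bases 1 to 75 of the coding sequence of both genes in GENCODE M21 on GRCm38, is shown because a read made of it belongs equally to either.
Hspa1a and Hspa1b: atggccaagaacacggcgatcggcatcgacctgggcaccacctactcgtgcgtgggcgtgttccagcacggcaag
Summed over both copies, the level was 329.6 and 287 CPM in mCDC replicates 1 and 2 and 239 and 157 CPM in vehicle replicates 1 and 2, a 1.56-fold difference of means that did not overlap between groups. With the testis-type neighbour Hspa1l added, which shares 7.09% of its own windows with them, it was 451 and 407 CPM in mCDC replicates 1 and 2 and 358 and 240.4 CPM in vehicle replicates 1 and 2.

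Their promoter windows were also nearly alike, with 296 of 300 bases the same, and each held 1 GAANNTTC word 104 bases before the start site. They are shown because these copies were the inducible HSP70 genes whose groups did not overlap, Hspa1a at chr17:34972107-34972406 and Hspa1b at chr17:34959189-34959488, both on the minus strand of GRCm38.p6, with the word in capitals.
Hspa1a: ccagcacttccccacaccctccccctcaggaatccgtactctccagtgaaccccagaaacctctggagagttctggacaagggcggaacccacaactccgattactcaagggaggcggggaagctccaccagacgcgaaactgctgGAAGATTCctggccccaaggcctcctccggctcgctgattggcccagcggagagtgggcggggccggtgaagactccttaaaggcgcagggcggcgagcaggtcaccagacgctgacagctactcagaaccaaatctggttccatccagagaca
Hspa1b: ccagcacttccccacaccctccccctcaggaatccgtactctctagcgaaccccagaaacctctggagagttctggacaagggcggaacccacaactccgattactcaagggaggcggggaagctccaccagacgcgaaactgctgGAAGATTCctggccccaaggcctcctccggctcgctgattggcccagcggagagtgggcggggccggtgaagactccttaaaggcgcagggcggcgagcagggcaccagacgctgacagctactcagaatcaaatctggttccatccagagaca

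Hspa5 encodes BiP, the HSP70 of the endoplasmic reticulum. It had 211 and 405 CPM in mCDC replicates 1 and 2 and 195 and 175 CPM in vehicle replicates 1 and 2. One library, mCDC replicate 2, was high, and mCDC replicate 1 lay close to vehicle replicate 1. The log2 fold change was 0.73 (standard error 0.27, edgeR adjusted p = 0.705) with all libraries and 0.19 without mCDC replicate 2, and the gene kept its call only when mCDC replicate 1 was the library removed. Other endoplasmic reticulum members showed the same library to be the highest. Hsp90b1 (GRP94) had 148 and 213 CPM in mCDC replicates 1 and 2 and 153 and 142 CPM in vehicle replicates 1 and 2. Dnajb9 (ERdj4) had 46.4 and 75.5 CPM in mCDC replicates 1 and 2 and 48.8 and 40.9 CPM in vehicle replicates 1 and 2. Dnajb11 (ERdj3), a cofactor of BiP, had 59.9 and 72.2 CPM in mCDC replicates 1 and 2 and 55.3 and 49.7 CPM in vehicle replicates 1 and 2. Without mCDC replicate 2 the log2 fold changes of Hsp90b1, Dnajb9 and Dnajb11 went from 0.29, 0.44 and 0.33 to 0.01, 0.05 and 0.19, and Dnajb9 was called without mCDC replicate 1, at 0.75.

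Not every endoplasmic reticulum chaperone followed. Dnajc3 (P58IPK), another cofactor of BiP, had 25.9 and 27.2 CPM in mCDC replicates 1 and 2 and 25.7 and 26.8 CPM in vehicle replicates 1 and 2, and Dnajc10 (ERdj5), a disulfide reductase, had 17.6 and 16.1 CPM in mCDC replicates 1 and 2 and 22.9 and 18.5 CPM in vehicle replicates 1 and 2. Over the 10 endoplasmic reticulum members, a list written after the counts had been seen, 6 had a log2 fold change above 0 and the median was 0.04. That median was -0.04 on library totals alone, with 4 above 0, 0.17 after correction for transcript length and GC content, with 8 above 0, and between 0.02 and 0.16 with 1 library left out. The ER stress element, CCAAT and CCACG with 9 bases between them, searched on both strands, was found in the windows of Hspa5, Hsp90b1 and Dnajc3 and in 0.137% of all genes, and these 3 members had log2 fold changes of 0.73, 0.29 and 0.02. The Hspa5 window at chr2:34771840-34772139 on the plus strand of GRCm38.p6 shows the element in capitals, starting 65 bases before the start site.
Hspa5: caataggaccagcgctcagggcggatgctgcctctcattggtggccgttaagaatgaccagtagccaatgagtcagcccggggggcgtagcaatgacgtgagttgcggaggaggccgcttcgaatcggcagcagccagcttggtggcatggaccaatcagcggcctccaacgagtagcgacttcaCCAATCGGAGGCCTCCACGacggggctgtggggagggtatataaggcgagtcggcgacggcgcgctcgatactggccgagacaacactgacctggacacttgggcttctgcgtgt

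Among the other HSP70 genes, Hspa8 (HSC70), the constitutive and most abundant one at 926 CPM per kilobase, had 1907 and 2361 CPM in mCDC replicates 1 and 2 and 1968 and 1940.1 CPM in vehicle replicates 1 and 2, a log2 fold change of 0.13 (standard error 0.17, edgeR adjusted p = 0.870). Hspa9 (mortalin), the mitochondrial HSP70, had 689.7 and 784 CPM in mCDC replicates 1 and 2 and 678 and 620.3 CPM in vehicle replicates 1 and 2, a narrow separation with a log2 fold change of 0.18. Hspa2 had 39.2 and 30.5 CPM in mCDC replicates 1 and 2 and 51.2 and 32.2 CPM in vehicle replicates 1 and 2, and its groups overlapped.

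Hspa12a, a distant HSP70 relative that lacks the usual substrate-binding domain, was the member called lower. It had 2.88 and 2.24 CPM in mCDC replicates 1 and 2 and 4.24 and 5.35 CPM in vehicle replicates 1 and 2, on between 49 and 147 counts a library. Its log2 fold change was -0.90 (standard error 0.27, edgeR adjusted p = 0.635), and it was -0.73 and no longer called without mCDC replicate 2. Hspa12b, its endothelial relative, had 11.1 and 9.09 CPM in mCDC replicates 1 and 2 and 9.46 and 17.5 CPM in vehicle replicates 1 and 2, so that only vehicle replicate 2 was high. Its log2 fold change of -0.41 became -0.79 without vehicle replicate 1 and 0.09 without vehicle replicate 2. The 4 endothelial markers Pecam1, Cdh5, Kdr and Tek were also highest in vehicle replicate 2, with summed levels of 100.2 and 80.4 CPM in mCDC replicates 1 and 2 and 85.3 and 178 CPM in vehicle replicates 1 and 2. All 4 markers had log2 fold changes below 0, but 3 of the 4 lay above 0 without vehicle replicate 2, with a median of 0.09. The part of these markers in the result was not tested. In whole muscle, fewer cells of a type cannot be told apart from less RNA per cell.

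**Figure D3:**
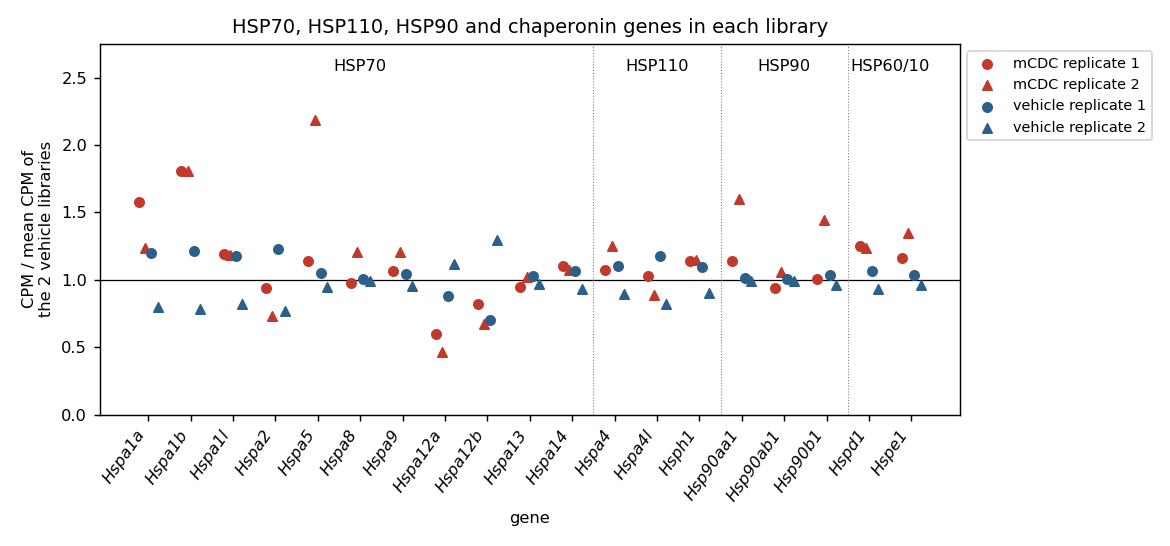
CPM in each library divided by the mean of the 2 vehicle libraries (y) for the HSP70, HSP110, HSP90 and chaperonin genes (x). Hspa1b is alike in both mCDC libraries, while the high value of Hspa5, Hsp90aa1 and Hsp90b1 comes from mCDC replicate 2 and that of Hspa12b from vehicle replicate 2.

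The 2 cytosolic HSP90 genes differed in pattern. Hsp90aa1, the inducible form, had 152 and 215 CPM in mCDC replicates 1 and 2 and 135 and 132 CPM in vehicle replicates 1 and 2, a log2 fold change of 0.45 (standard error 0.18, edgeR adjusted p = 0.713) that was under the fold threshold, became 0.19 without mCDC replicate 2 and was 0.68, and called, without mCDC replicate 1. Hsp90ab1, the constitutive form, stood at 832 CPM per kilobase against 51.7 CPM per kilobase for Hsp90aa1, and had 1976 and 2215 CPM in mCDC replicates 1 and 2 and 2120.1 and 2078 CPM in vehicle replicates 1 and 2. Its vehicle libraries lay between its mCDC libraries. The difference between the changes of these genes was not tested.

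HSP110 genes had small differences. Hsph1 (HSP105) had 78.7 and 79.3 CPM in mCDC replicates 1 and 2 and 75.9 and 62.6 CPM in vehicle replicates 1 and 2, a log2 fold change of 0.19. Hspa4 (APG-2) had 200.3 and 233 CPM in mCDC replicates 1 and 2 and 205 and 167 CPM in vehicle replicates 1 and 2, and its groups overlapped, as did those of Hspa4l, at between 7.46 and 10.7 CPM.

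The chaperonins of the mitochondrial matrix, Hspd1 (HSP60) and its lid Hspe1 (HSP10), were close in size and direction. Hspd1 had 216 and 212 CPM in mCDC replicates 1 and 2 and 183 and 160.3 CPM in vehicle replicates 1 and 2. Hspe1 had 65.1 and 75.6 CPM in mCDC replicates 1 and 2 and 58.1 and 53.9 CPM in vehicle replicates 1 and 2. In neither gene did the groups overlap, and the log2 fold changes were 0.32 (standard error 0.13) and 0.33 (standard error 0.14), with an edgeR adjusted p of 0.714 each and below the fold threshold. With each library left out they ran from 0.22 to 0.42 and from 0.22 to 0.43. Pseudogenes that the table does not list hold 33.7% of the 75-base windows of Hspd1 and 23.7% of those of Hspe1, as they hold 50.9% of those of Hsp90aa1 and 66% of those of Hspa8.

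The pair is transcribed from one divergent promoter on chromosome 1, with Hspd1 at chr1:55077835-55088243 on the minus strand and Hspe1 at chr1:55088132-55091307 on the plus strand of GRCm38. The annotated genes overlap at their 5′ ends on opposite strands, and the Hspe1 window shares 285 bases with 1 of the 2 RefSeq windows of Hspd1, the other of which, at chr1:55088194-55088493, holds no heat shock word. The 3-unit heat shock element, GAANNTTC followed by NNGAA or, on the other strand, TTCNN followed by GAANNTTC, contains the 2-unit words and was found in the windows of Hspd1, Hspe1, Hsph1 and Dnajb6 and in 0.662% of all genes. The window of Hspe1 at chr1:55087898-55088197 on the plus strand, shown because it covers a RefSeq start site of each gene, has a pair of overlapping 3-unit words in capitals, the first starting 89 bases before the Hspe1 start site.
Hspe1: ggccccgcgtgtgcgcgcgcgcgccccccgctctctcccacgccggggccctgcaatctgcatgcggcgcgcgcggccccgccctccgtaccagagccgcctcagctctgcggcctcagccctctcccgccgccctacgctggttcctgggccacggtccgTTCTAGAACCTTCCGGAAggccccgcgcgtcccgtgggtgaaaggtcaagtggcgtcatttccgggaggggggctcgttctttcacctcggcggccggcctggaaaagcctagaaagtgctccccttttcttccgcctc

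Other mitochondrial members had smaller differences in the same direction. Dnaja3 (TID1), the J-domain partner of mortalin, had 138 and 140.1 CPM in mCDC replicates 1 and 2 and 122 and 105 CPM in vehicle replicates 1 and 2, a log2 fold change of 0.29. Dnajc15, of the inner membrane import motor, had 46.5 and 48.8 CPM in mCDC replicates 1 and 2 and 38.6 and 43.6 CPM in vehicle replicates 1 and 2, while Dnajc19, of the same motor, had 51.0 and 52.9 CPM in mCDC replicates 1 and 2 and 47.4 and 51.6 CPM in vehicle replicates 1 and 2, where the groups overlapped. The list of mitochondrial members was written after the counts had been seen. All 8 on it had a log2 fold change above 0, against 48.4% of all genes tested, with a median of 0.22. On library totals alone 6 of the 8 did, with a median of 0.15, and 7 did without mCDC replicate 1 and again without vehicle replicate 2. In 6 of the 8 both mCDC libraries lay above both vehicle libraries, against 19.2% of all genes tested. None was called, where 1.26% of all genes tested were called higher and 2.74% lower.

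**Figure D4:**
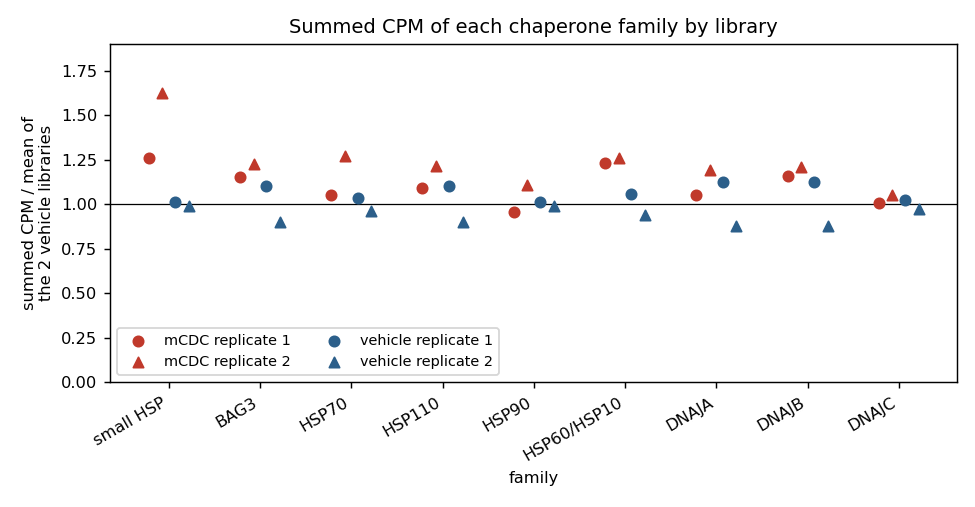
Summed CPM of each family in each library, divided by the mean of the 2 vehicle libraries (y), by family (x). The small heat shock proteins and the HSP60 and HSP10 pair show both mCDC libraries clear of both vehicle libraries, and the DNAJC sum lies near 1 in all 4.

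Of the J-domain proteins, 37 were tested and none was called, where 1.26% of all genes tested were called higher and 2.74% lower. With 37 genes, none called is close to those shares. The 4 DNAJA genes had log2 fold changes from 0.04 to 0.29 with a median of 0.13, the 9 tested DNAJB genes from -0.04 to 0.44 with a median of 0.27, and the 24 tested DNAJC genes from -0.30 to 0.32 with a median of 0.07, which was -0.01 on library totals alone and -0.02 without vehicle replicate 2. Without that library the DNAJA median was -0.01 and the DNAJB median 0.07. On library totals alone 2 of the 4 DNAJA genes lay above 0 with a median of 0.06, and after the length and GC correction that median was 0.21. The DNAJB median depended on the low-count filter, being 0.10 without it and 0.11 with DESeq2, each over 12 genes. The summed DNAJC level was 1058 and 1103 CPM in mCDC replicates 1 and 2 and 1077 and 1023 CPM in vehicle replicates 1 and 2.

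Dnajb1 (HSP40), the J-domain partner of inducible HSP70, had 7.80 and 7.90 CPM in mCDC replicates 1 and 2 and 7.48 and 7.39 CPM in vehicle replicates 1 and 2. These libraries were alike within each group, and the log2 fold change was 0.08 (standard error 0.19, edgeR adjusted p = 0.936). Dnaja1, also induced by heat in many cells, had 51.0 and 48.1 CPM in mCDC replicates 1 and 2 and 49.6 and 44.9 CPM in vehicle replicates 1 and 2, with overlap between the groups. Dnaja4, the DNAJA gene with the highest level per kilobase, ranged from 349.6 to 526 CPM with overlapping groups.

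Of the muscle-enriched DNAJB genes, Dnajb6, which is mutated in a limb-girdle muscular dystrophy and acts with BAG3 at the Z-disc, had 178 and 177 CPM in mCDC replicates 1 and 2 and 194 and 152 CPM in vehicle replicates 1 and 2, so the mCDC libraries lay between the vehicle libraries. Dnajb2, a J-domain protein that delivers ubiquitinated clients, had 119.5 and 159 CPM in mCDC replicates 1 and 2 and 112 and 107 CPM in vehicle replicates 1 and 2, a log2 fold change of 0.35 that was 0.13 without mCDC replicate 2. Dnajb5 had 220.4 and 191 CPM in mCDC replicates 1 and 2 and 185 and 156 CPM in vehicle replicates 1 and 2, a log2 fold change of 0.27. Dnajb4 had 187 and 179 CPM in mCDC replicates 1 and 2 and 192 and 105 CPM in vehicle replicates 1 and 2, where vehicle replicate 2 stood alone. Its log2 fold change of 0.30 became 0.80, and was called, without vehicle replicate 1, and became -0.07 without vehicle replicate 2. Dnaja2 and Dnajb14 had log2 fold changes of 0.04 and -0.04.

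In the DNAJC class, Dnajc17 had the highest log2 fold change, at 0.32, on 9.88 and 9.64 CPM in mCDC replicates 1 and 2 and 6.94 and 8.69 CPM in vehicle replicates 1 and 2. Dnajc10, given above, had the lowest. Dnajc8, a splicing-associated member with the highest level per kilobase of its class, ranged only from 66.0 to 70.1 CPM over the 4 libraries. Dnajc5 (cysteine string protein alpha), a chaperone of synaptic vesicles, ranged from 55.7 to 70.5 CPM with overlapping groups.

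Across members, the result depended on which library was left out. Without mCDC replicate 2 the median log2 fold change was 0.21 for the small heat shock proteins and 0.01 for HSP90, where it was 0.69 and 0.53 without mCDC replicate 1. Members called higher numbered 9 without mCDC replicate 1, where 2.83% of all genes in that fit were, and 3 without vehicle replicate 1, where 1.95% were. They numbered 2 without mCDC replicate 2, where 0.800% of all genes were called higher, and 2 without vehicle replicate 2, where 1.56% were. Members called lower numbered 2 without mCDC replicate 1, against 3.89% of all genes, 0 without mCDC replicate 2, against 1.69%, 2 without vehicle replicate 1, against 5.97%, and 1 without vehicle replicate 2, against 2.53%. In these 4 fits, 34 members had a log2 fold change above 0 each time and 5 had one below 0 each time, namely Dnajc1, Dnajc10, Dnajc13, Hspa12a and Hspb11. All 8 tested small heat shock protein genes were among these 39. The 8 immediate early genes taken as signs of handling, from Fos to Ier3, had summed levels of 378 and 451 CPM in mCDC replicates 1 and 2 and 319 and 361 CPM in vehicle replicates 1 and 2. Junb, Egr1, Atf3, Ier2 and Ier3 were highest in mCDC replicate 2, whereas Jun and Fosb were lowest there and Fos was highest in vehicle replicate 2. Atf3, which is induced by stress, had 21.6 and 60.0 CPM in mCDC replicates 1 and 2 and 14.0 and 11.8 CPM in vehicle replicates 1 and 2. Their part in the results was not tested.

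**Figure D5:**
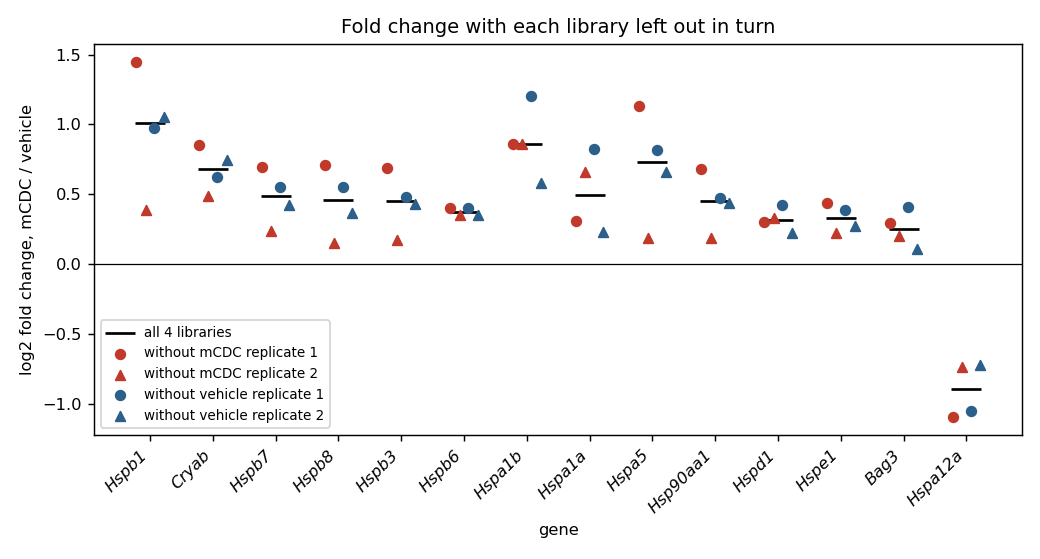
Log2 fold change between mCDC and vehicle muscles (y) for 14 members (x) from all 4 libraries (black bars) and after removing each one. The points without mCDC replicate 2 lie closest to 0 for Hspb1, Cryab, Hspb7, Hspb8, Hspb3, Hspa5 and Hsp90aa1, and Hspb6, Hspd1 and Hspe1 move least.

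The regulators and partners of these chaperones were measured on lists written beside the members. Hsf1 had 52.3 and 45.9 CPM in mCDC replicates 1 and 2 and 44.7 and 42.1 CPM in vehicle replicates 1 and 2, and Hsf2 had 41.1 and 42.9 CPM in mCDC replicates 1 and 2 and 38.9 and 31.5 CPM in vehicle replicates 1 and 2. Neither transcript was called, with log2 fold changes of 0.18 and 0.25. These ran from 0.08 to 0.27 and from 0.11 to 0.42 with 1 library left out. Of 11 further HSF1 targets that are not members, 0 were called, where 1.26% of all genes tested were called higher and 2.74% lower. Their median log2 fold change was 0.09, between 0.13 and 0.17 with 1 library left out, 0.01 on library totals alone and 0.19 after the length and GC correction. Stip1 (HOP), which joins HSP70 to HSP90, had 143 and 154 CPM in mCDC replicates 1 and 2 and 122 and 109 CPM in vehicle replicates 1 and 2, a log2 fold change of 0.36 (standard error 0.13, edgeR adjusted p = 0.705).

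Of 24 HSP90 co-chaperones tested, 20 had a log2 fold change above 0, against 48.4% of all genes tested, and between 15 and 23 did with 1 library left out. Of these 0 were called, where 1.26% of all genes tested were called higher and 2.74% lower, and the median was 0.10. That median ran from 0.06 to 0.16 with 1 library left out, and was 0.02 on library totals alone and 0.18 after the length and GC correction. Unc45b and Fkbp4, the myosin chaperone and a receptor co-chaperone, had -0.04 and 0.08. Fkbp5, a glucocorticoid-responsive co-chaperone, had 55.3 and 26.9 CPM in mCDC replicates 1 and 2 and 30.1 and 26.5 CPM in vehicle replicates 1 and 2, so that only mCDC replicate 1 was high. Of 17 HSP70 co-chaperones tested, 11 were above 0, against 9 on library totals alone, and 0 were called, with Stub1 (CHIP), the ubiquitin ligase of HSP70 clients, at 0.11.

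On the list of chaperone-assisted selective autophagy, the route by which BAG3, HSPB8 and HSP70 remove damaged filamin, all 10 genes, 5 of them members, had a log2 fold change above 0, and 8 of the 10 did on library totals alone or without vehicle replicate 2. The filamin client itself, Flnc, had 3987 and 7106 CPM in mCDC replicates 1 and 2 and 3486 and 2891 CPM in vehicle replicates 1 and 2, and was called higher at 0.80 on the log2 scale (standard error 0.28, edgeR adjusted p = 0.684). mCDC replicate 2 was the high library here too, and without it the log2 fold change was 0.32. Synpo2, the tether of this machinery at the Z-disc, had overlapping groups and a log2 fold change of 0.08.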

How the data were processed

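RNA-seq libraries of 2 mCDC and 2 vehicle soleus samples were analysed. Single-end reads of 75 bases were mapped by the authors with Bowtie2 (version 2.1.0) to UCSC transcripts, and RSEM (version 1.2.15) expected counts per gene were deposited without normalization. The submitters' processing notes name mm10. Per the labels the library kit was a stranded one, but the methods name a different kit. Of the values, 15.7% were not whole, since RSEM divides reads that match several genes, and expected counts were rounded here. The members and gene lists were chosen with earlier results of these data known, and the mitochondrial and endoplasmic reticulum groupings were written after the counts had been seen.

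The whole table was fitted with edgeR 4.0.16 (R 4.3.3), using its default low-count filter, TMM factors, the newer form of the quasi-likelihood F-test and Benjamini-Hochberg adjustment over 13652 genes. A standard error was taken as the size of a log2 fold change over the root of its F statistic. CPM divide rounded counts by the scaled library size. The labels do not say that the 4 samples came from 4 different mice or were prepared separately, so p-values measure only the spread between these samples, which may be technical. Lengths are the median of GENCODE M21 basic transcripts, and all 74 members were paired by name. Named members were a list of 35 main chaperones, called members, the 10 with the smallest p without overlap between groups, and the extremes and most abundant gene of each family. Hspa1l, Hspa12b, Dnajc1 and Dnajc13 fell outside that rule and were named after their values had been seen. Alternatives were DESeq2 1.42.0, other scalings, filters and edgeR tests, blocking on replicate number, correction for transcript length and GC content, and the omission of single libraries.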

Additional observations from a re-analysis of the deposited data

How the results depend on the processing

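The 4 members called higher and the 1 called lower stayed at those numbers under DESeq2, edgeR's exact and legacy tests, relative log expression factors, library totals alone, both other filters, the length and GC correction, and the fit with the replicate number as a block. Same-numbered libraries share only a number: their deviations had a correlation of -0.039, and with the replicate block the numbers were 4 and 1 and the members' median was 0.12. With single libraries left out, members called higher ran from 2 to 9 and members called lower from 0 to 2. Family medians (log2) then ran from 0.21 to 0.69 for the small heat shock proteins, 0.089 to 0.24 for HSP70, 0.11 to 0.40 for BAG3, 0.056 to 0.34 for HSP110, 0.011 to 0.53 for HSP90, 0.25 to 0.40 for HSP60 and HSP10, -0.0094 to 0.30 for DNAJA, 0.069 to 0.34 for DNAJB, and -0.017 to 0.076 for DNAJC. On library totals alone the median was 0.24 for HSP60 and HSP10 and -0.013 for DNAJC. Over all genes, 172 were called higher and 374 lower, against 121 and 508 on library totals and 202 and 288 after the length and GC correction, and without mCDC replicate 1 they were 396 and 544. Genes with an adjusted p under 0.05 numbered 0, against 48 with DESeq2 and 58 with edgeR's exact test, and with mCDC replicate 1 or 2 left out they numbered 91 and 17, with vehicle replicate 1 or 2 left out 0 and 1. The causes were not tested. With 2 libraries a group, a single library can decide a call, and the 9 members with few or no counts were not tested.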

Other observations

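Chaperone systems outside the heat shock families were measured in the same libraries. The CCT chaperonin, which folds actin and tubulin, had 8 tested subunits. All 8 had a log2 fold change above 0, against 48.4% of all genes tested, with a median of 0.18. In 6 of the 8 both mCDC libraries lay above both vehicle libraries, against 19.2% of all genes tested. On library totals alone, or without mCDC replicate 2 or vehicle replicate 2, 7 lay above 0, and the median was 0.11 on library totals and 0.12 in each fit without one of those libraries. Its summed level was 1159 and 1296 CPM in mCDC replicates 1 and 2 and 1129 and 1037 CPM in vehicle replicates 1 and 2. The 5 tested prefoldin subunits, which hand actin to CCT, also lay above 0, with a median of 0.07, but on library totals alone 2 did and the median was -0.01, and after the length and GC correction it was 0.12. No gene on either list was called, where 1.26% of all genes tested were called higher and 2.74% lower.

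Of 28 endoplasmic reticulum folding and stress genes that are not members, 21 had a log2 fold change above 0 with a median of 0.17, but without mCDC replicate 2 13 of the 28 did and the median was -0.01, and on library totals alone 19 did and it was 0.09. Of these genes 0 were called higher and Ero1lb, a low gene at between 1.37 and 3.20 CPM, was called lower. Over all genes tested, 1.26% were called higher and 2.74% lower. Hyou1 (GRP170) had 38.2 and 50.2 CPM in mCDC replicates 1 and 2 and 34.0 and 33.3 CPM in vehicle replicates 1 and 2, and Atf4, a transcription factor of the stress response, had 281 and 384 CPM in mCDC replicates 1 and 2 and 251 and 271 CPM in vehicle replicates 1 and 2. Xbp1 had 53.8 and 80.4 CPM in mCDC replicates 1 and 2 and 53.1 and 53.9 CPM in vehicle replicates 1 and 2, so that only mCDC replicate 2 was high, and Ddit3 (CHOP) had overlapping groups with vehicle replicate 2 the highest, at 91.3 CPM. Of 11 mitochondrial proteostasis genes that are not members, 9 lay above 0 with a median of 0.15, and on library totals alone 8 did with a median of 0.07. They include Trap1, the mitochondrial HSP90, at 0.16 and Grpel1, the nucleotide exchange factor of mortalin, at 0.25.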
